A study of Mus musculus with 18 samples.

Results

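Nuclear receptors are transcription factors that bind DNA directly, and many of them are switched by a small lipid-soluble ligand such as a steroid, thyroid hormone, vitamin D, a retinoid or a fatty acid derivative. Several work as pairs with a retinoid X receptor, and all recruit coactivators or corepressors to the genes they bind. In the mammary gland, glucocorticoid, retinoid, vitamin D and thyroid hormone signalling are known to bear on ductal growth and on the preparation for lactation. The genes described here are 39 members of this receptor family, taken from a fixed list that leaves out the oestrogen receptor alpha gene, the progesterone receptor gene and the Nr4a genes. They were found by gene identifier among 52636 identifiers. The list does not hold every other member of the family.

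RNA was sequenced from 18 libraries, 1 for each of 6 sample numbers in each of 3 epithelial populations sorted from the mammary gland of mice. All animals were nulliparous, 12 weeks old and untreated, and all carried the MMTV-Cre transgene, in which a viral promoter that itself responds to steroid hormones drives the Cre recombinase. No group without the transgene was analysed here, and the labels do not name the strain. Glands were digested with enzymes, and cells were gated by antibodies to CD49f and CD61, to EpCAM, and to CD31, CD45 and Ter119 as markers of other lineages. Basal cells (CD49f high, CD61 positive) form the outer, contractile layer. Alveolar progenitors (AP; CD49f low, CD61 positive) and hormone-sensing luminal cells (HSL; CD49f low, CD61 negative) line the duct. The labels do not state that each sample number is 1 animal, so the p-values measure the spread between these samples.

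The 6 basal libraries held 29899462 to 91095830 counts each, the AP libraries 37391691 to 62505465 and the HSL libraries 26516293 to 52404937. Levels are given as CPM, the count scaled to a common library size with TMM factors, as the lowest, median and highest of 6 libraries. Fold changes are log2 ± SE with adjusted p from the quasi-likelihood test of edgeR, and a gene is called at an adjusted p under 0.05. The sorted cells carried their own markers: the summed level of 6 basal identity genes had a median of 36808 CPM in the basal libraries, and of 164 and 49.7 CPM in those of AP and HSL. The sum of 6 alveolar progenitor genes was 114, 4697 and 275 CPM in the same order, and that of 6 hormone-sensing genes 161, 787 and 4177 CPM. The 3 libraries of sample 1 stood apart from the rest: 4189 of 16471 genes (25.4%) differed between sample numbers, and 1696 did without sample 1. In bulk RNA, fewer cells of a type and less RNA per cell cannot be told apart.

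Of the 39 receptors, 27 had enough counts to be tested and 12 did not. Between AP and basal, 7 of the 27 were called, where 44.7% of all tested genes were. Esrrb, Esrrg, Nr1h3 and Nr1d1 rose in AP, where 21.5% of all genes did, and Ppara, Nr2c1 and Nr2f2 fell, as did 23.1% of all genes. When the fit took the number of the sample as a block, 12 were called, 8 higher and 4 lower, and the share of all genes called was 55.1%. Between HSL and basal, 15 were called against 58.4% of all genes, 7 of them higher and 8 lower, beside 27.8% and 30.6% of all genes. Between HSL and AP, 10 were called against 39.9% of all genes, 5 in each direction beside 19.8% and 20.1% of all genes, and 13 with the block, 8 of them higher, where it called 50.8% of all genes. Without sample 1, 28 receptors were tested, and 6 were higher and 4 lower in AP against basal, 7 higher and 11 lower in HSL against basal, and 7 higher and 8 lower in HSL against AP. The shares of all genes called without sample 1 were 50.8%, 64.7% and 48%. Of all genes called between HSL and AP, 49.6% were higher, or 35.6% with scaling to total counts, which moved the median log2 fold of all genes from -0.01 to -0.19.

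A fold of at least 2 was reached by 4 of the called receptors in AP against basal, by 12 in HSL against basal and by 6 in HSL against AP, where 28%, 37.4% and 21.9% of all tested genes were called with such a fold. Of these receptors 3, 6 and 1 were higher (12.1%, 15.5% and 8.45% of all genes) and 1, 6 and 5 lower (15.9%, 21.9% and 13.5%). The median absolute log2 fold of the tested receptors was 0.41, 0.93 and 0.51 in these comparisons, beside 0.58, 0.78 and 0.54 over all genes. In all, 18 receptors were called in at least 1 comparison, as were 70.7% of all genes. The other 9 were Rara, Rarg, Rxra, Rxrb, Thra, Ppard, Pparg, Nr1d2 and Nr2c2. The libraries of the populations did not overlap for 4, 8 and 3 of the 27 receptors, where 25.9%, 36.9% and 20.6% of all genes did not overlap.

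**Figure D1:**
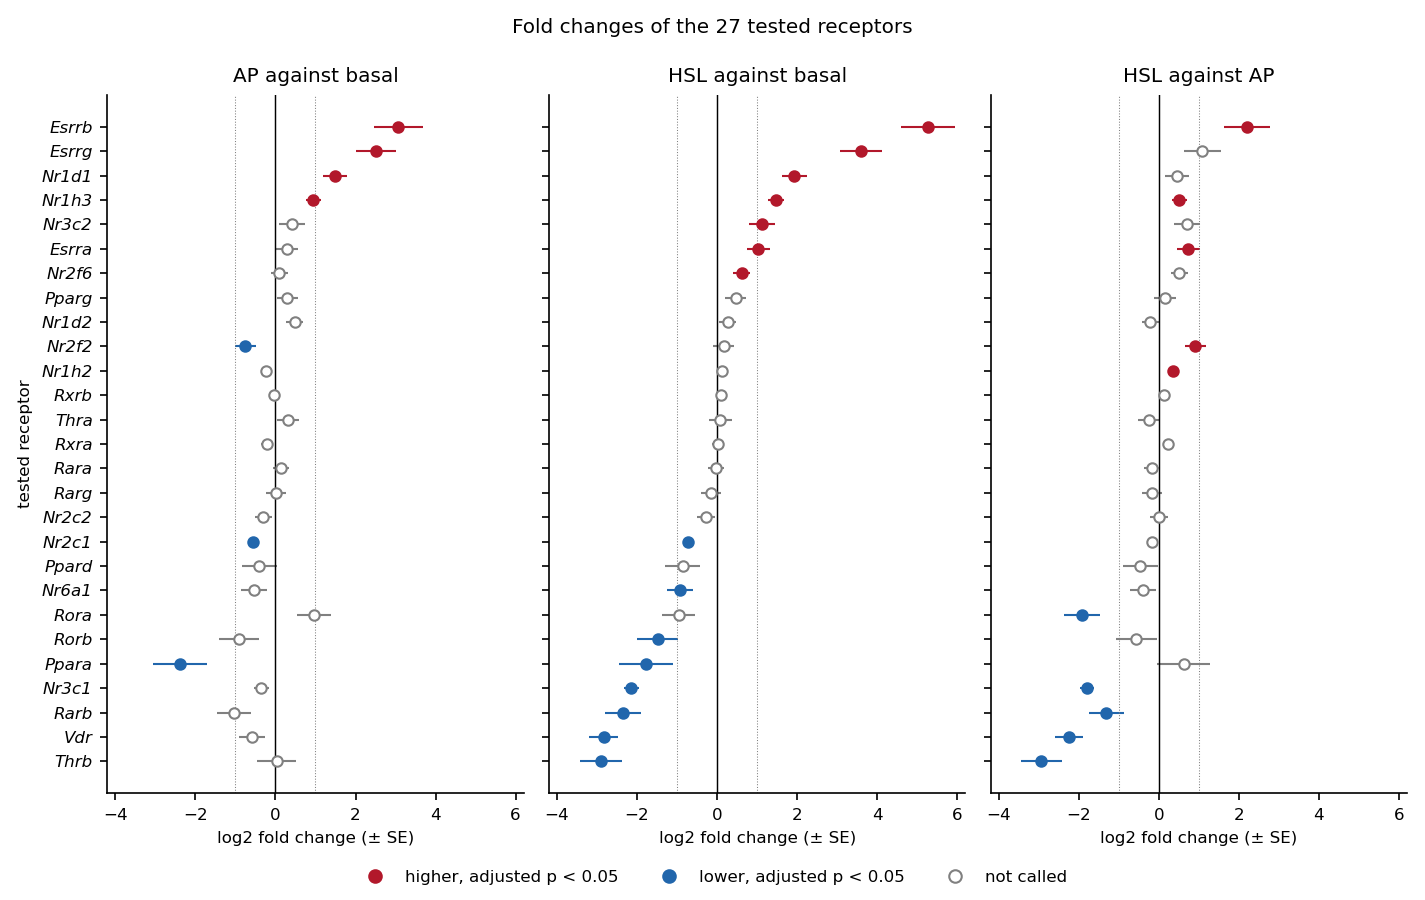
Log2 fold change with its standard error for each of the 27 tested receptors in AP against basal, HSL against basal and HSL against AP, in the order of the middle panel. Filled points are called and open points are not, dotted lines mark a 2-fold change, and Esrrb stands at 5.27 and Thrb at -2.90 at the ends of HSL against basal.

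The receptors for steroid hormones of the adrenal went opposite ways in HSL. Nr3c1, the glucocorticoid receptor, was at 76.4 to 138 CPM in basal (median 107), 72.7 to 100.3 in AP (median 80.2) and 13.5 to 31.8 in HSL (median 25.8). Every HSL library lay below every basal and AP library. Nr3c1 fell in HSL with a log2 fold of -2.14 ± 0.18 against basal (adjusted p = 1.86e-08) and of -1.79 ± 0.18 against AP (adjusted p = 8.76e-07). Both calls held under all 16 alternatives. Between AP and basal the fold was -0.35 ± 0.18 (adjusted p = 0.118), with lower levels in AP in 6 of 6 sample numbers. The block gave -0.34 (adjusted p = 0.0872), and the fit without sample 1 gave -0.40 (adjusted p = 0.0697). The block without sample 1, a setting chosen after the data were seen, gave -0.39 (adjusted p = 0.0261).

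Nr3c2, the mineralocorticoid receptor, lies at chr8:76899442-77245012 on the plus strand of GRCm38. It was at 5.76 to 27.4 CPM in basal (median 17.8), 13.1 to 40.4 in AP (median 21.1) and 19.2 to 51.5 in HSL (median 36.1). It rose in HSL against basal by 1.12 ± 0.32 (adjusted p = 0.00628) and was higher in 6 of 6 sample numbers, although the groups overlapped. The fold of HSL against AP was 0.71 ± 0.32 (adjusted p = 0.0867), and 0.72 in the blocked fit (adjusted p = 0.00229). AP against basal gave 0.41 (adjusted p = 0.323), and 0.46 with the block (adjusted p = 0.028). The level in sample 1 was the lowest in all 3 populations, and without sample 1 the HSL against AP fold was 0.70 with an adjusted p of 0.022.

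Of 12 genes for glucocorticoid handling and response, 11 were tested, and Hsd11b1, which regenerates active glucocorticoid, had no count in any library. Genes whose whole span overlaps another are mostly listed at 0 in these files (1134 of 1264 protein-coding genes). Among protein-coding genes that share no span, 2707 of 12082 are at 0. The overlap of Hsd11b1, and of other genes of the lists at 0 in all libraries, is not given here. A 0 for them does not by itself show a lack of expression. In HSL against basal 2 rose and 5 fell, in HSL against AP 2 rose and 4 fell, and in AP against basal 1 rose and 1 fell. Errfi1, a feedback inhibitor of EGF receptor signalling, was at 600.2 to 2532 CPM in basal, 395 to 1831 in AP and 220.4 to 391 in HSL. Errfi1 fell in HSL with a log2 fold of -2.58 ± 0.34 against basal (adjusted p = 3.52e-06) and of -2.18 ± 0.33 against AP (adjusted p = 5.53e-05). Dusp1, a phosphatase of MAP kinases, fell in HSL with a log2 fold of -1.79 ± 0.29 against basal and Klf9, a zinc finger factor, of -1.33 ± 0.18 (adjusted p = 3.27e-05 and 5.08e-06). The metallothionein gene Mt2 fell with a log2 fold of -5.14 ± 0.54 in AP and of -4.58 ± 0.52 in HSL against basal (adjusted p = 3.52e-07 and 6.2e-07), but 82.8% of its span is shared with another gene, and the library kit does not mark strand. Dusp1 is also an immediate early gene, a class that enzymatic dissociation of tissue can induce. The summed level of 7 immediate early genes was at 6494 to 18078 CPM in basal, 6001 to 12698 in AP and 7981 to 11689 in HSL, 4 of the 7 were called lower and 1 higher in HSL against basal, and its part in these results was not tested.

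All 3 oestrogen-related receptors rose in HSL against basal, and Esrrb and Esrrg also rose in AP. They bind DNA without a known natural hormone, and Esrra and Esrrg are best known as regulators of mitochondrial genes. Esrrb lies at chr12:86361117-86521628 on the plus strand and shares no span with another gene. It was at 0.348 to 1.36 CPM in basal (median 0.726), 1.54 to 17.3 in AP (median 3.24) and 9.63 to 54.5 in HSL (median 27.1). The basal libraries overlapped with neither luminal population, while AP and HSL overlapped. Esrrb rose by 3.07 ± 0.62 in AP against basal (adjusted p = 0.000491) and by 5.27 ± 0.68 in HSL against basal (adjusted p = 2.49e-06). It was also higher in HSL than in AP, by 2.21 ± 0.58 (adjusted p = 0.00551), in 6 of 6 sample numbers. Of the 6 hormone-sensing identity genes, 5 were also called higher in AP against basal and 0 lower. Their sum was at 101 to 240 CPM in basal, 355 to 1348 in AP and 3200 to 4995 in HSL. Whether HSL cells in the AP libraries had a part in the AP levels of Esrrb and Esrrg was not tested.

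Esrrg, on chromosome 1 from 187608791 to 188214885, was at 0.502 to 4.92 CPM in basal (median 2.20), 5.96 to 34.5 in AP (median 9.03) and 17.3 to 50.7 in HSL (median 25.1). It rose by 2.5 ± 0.5 in AP and by 3.59 ± 0.52 in HSL against basal (adjusted p = 0.000443 and 9.9e-06), with no overlap. HSL against AP gave 1.09 ± 0.47 (adjusted p = 0.0737), and 1.28 with the block (adjusted p = 0.00455). The AP library of sample 3 had 34.5 CPM and the next highest 15.1, and without sample 3 the HSL against AP fold was 1.52 with an adjusted p of 0.0105. Leaving out any other sample gave folds from 0.89 to 1.10 that did not pass the test, at adjusted p from 0.0841 to 0.228.

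Esrra was at 10.5 to 25.7 CPM in basal (median 12.9), 11.1 to 30.3 in AP (median 16.7) and 25.9 to 44.4 in HSL (median 30.7). It rose by 1.03 ± 0.28 in HSL against basal (adjusted p = 0.00466), where the highest basal and the lowest HSL library were 25.7 and 25.9 CPM. Its rise in HSL against AP, 0.74 ± 0.28, passed the test narrowly (adjusted p = 0.0449). That call was lost when any 1 of samples 2 to 6 was left out, at adjusted p from 0.055 to 0.16. Those fits had no block, and the block with all samples gave 0.82 (adjusted p = 0.000142).

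Of 10 genes of energy metabolism listed as targets of these receptors, 7 rose and 1 fell in HSL against AP, 4 rose and 1 fell in HSL against basal, and 1 rose and 1 fell in AP against basal. Mdh1, the cytosolic malate dehydrogenase, rose by 0.84 ± 0.13 in HSL against basal and by 0.53 ± 0.13 against AP (adjusted p = 1.81e-05 and 0.00296). Atp5b, a subunit of the ATP synthase, rose by 0.65 ± 0.14 and 0.57 ± 0.14 (adjusted p = 0.000495 and 0.0029). Acadm, which oxidises medium-chain fatty acids, fell in HSL with a log2 fold of -0.55 ± 0.14 against basal and of -0.78 ± 0.14 against AP (adjusted p = 0.00318 and 0.000327). The median log2 fold of the 10 genes in HSL against AP was 0.49, where that of all genes was -0.01.

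**Figure D2:**
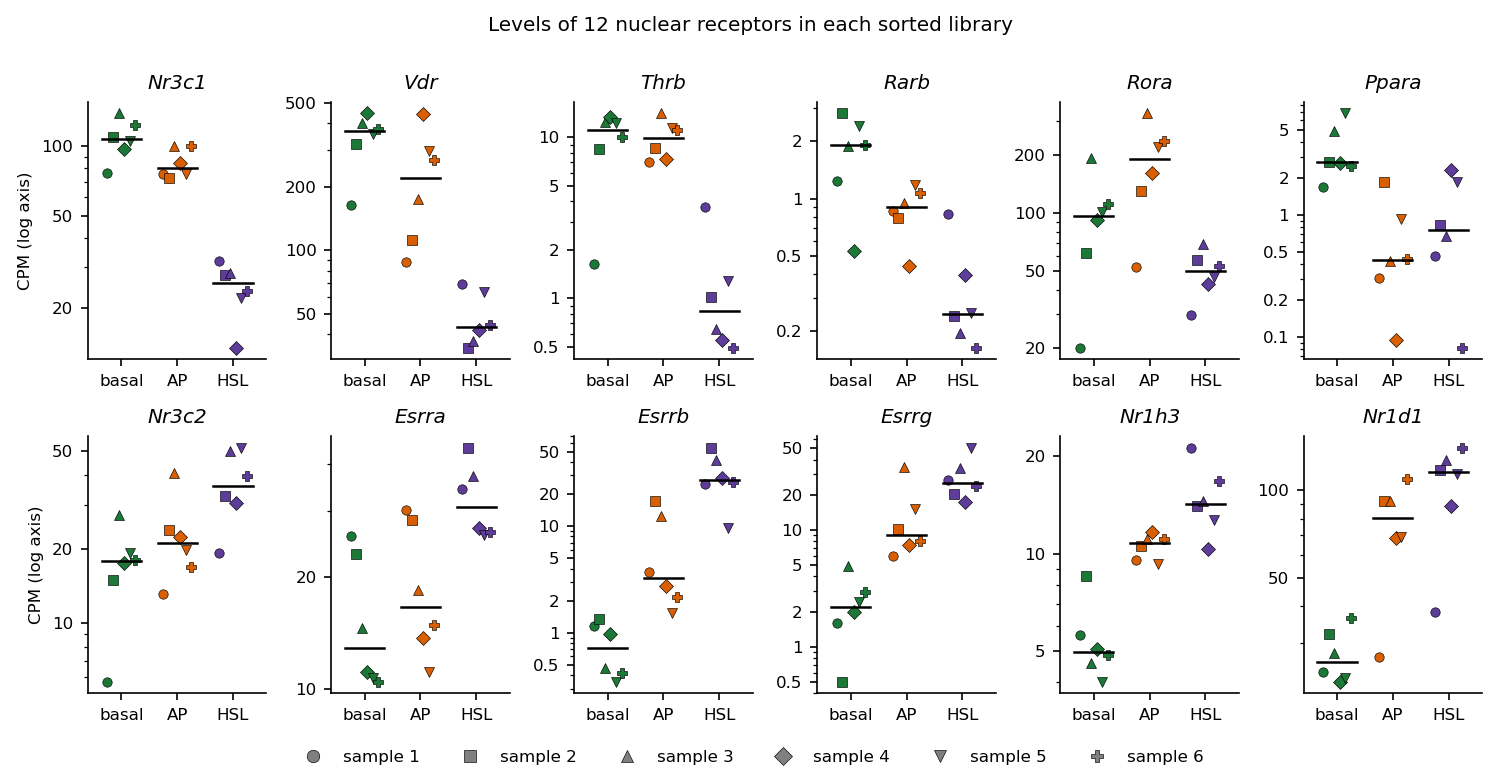
CPM on a log axis of 12 receptors in each of 18 libraries, with the population on the horizontal axis, a symbol for each sample number and a bar at the median of 6 libraries. Nr3c1, Vdr and Thrb are low in HSL, with HSL medians of 25.8, 43.0 and 0.832 CPM, while Esrrb and Esrrg are high there, with medians of 27.1 and 25.1 CPM.

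The vitamin D receptor and the beta receptor for thyroid hormone were lower in HSL. Vdr, the vitamin D receptor, on chromosome 15 from 97854425 to 97910630, was at 163 to 446 CPM in basal (median 366), 87.8 to 441 in AP (median 221) and 34.5 to 69.1 in HSL (median 43.0). Every HSL library lay below the other 12. Vdr fell in HSL with a log2 fold of -2.83 ± 0.36 against basal (adjusted p = 2.02e-06) and of -2.25 ± 0.35 against AP (adjusted p = 5.91e-05). It was also lower in AP than in basal in 6 of 6 sample numbers, a fold of -0.58 ± 0.33 that did not pass the test (adjusted p = 0.169, and 0.0218 with the block and without sample 1, a setting chosen after the data were seen).

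Thrb encodes thyroid hormone receptor beta. It was at 1.64 to 13.5 CPM in basal (median 11.2), 7.02 to 14.1 in AP (median 9.91) and 0.494 to 3.70 in HSL (median 0.832). Thrb fell in HSL with a log2 fold of -2.90 ± 0.52 against basal and of -2.93 ± 0.52 against AP (adjusted p = 9.77e-05 and 0.000206). Sample 1 held both the lowest basal and the highest HSL library, the latter above its basal partner. Without sample 1 the folds were -3.84 and -3.74 (adjusted p = 1.01e-08 and 5.91e-08). Thra, the alpha receptor, was at 13.6 to 35.8 CPM in basal, 20.3 to 52.8 in AP and 18.4 to 42.7 in HSL, with no call. The intervals of its log2 folds ran from -0.26 to 0.91 for AP against basal, from -0.50 to 0.66 for HSL against basal and from -0.83 to 0.34 for HSL against AP. With the block it was called higher in AP against basal, by 0.30 (adjusted p = 0.0292). The end of Thra overlaps that of Nr1d1 on the other strand over 18.4% of its exon length.

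Of 10 genes that carry, convert or answer thyroid hormone, 7 were tested. In HSL against basal 6 fell and 1 rose, in HSL against AP 3 fell and 1 rose, and in AP against basal 3 fell and 1 rose. Hr, the corepressor hairless, fell in HSL with a log2 fold of -3.84 ± 0.34 against basal and of -2.78 ± 0.33 against AP (adjusted p = 3.08e-08 and 3.77e-06). Crym, which binds thyroid hormone in the cytosol, rose in HSL by 3.96 ± 0.49 against basal and by 2.17 ± 0.45 against AP (adjusted p = 1.58e-06 and 0.000893).

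Only 3 of 8 genes of vitamin D handling and response were tested. Trpv6, a calcium channel, was at 21 to 46.7 CPM in basal, 1.42 to 4.53 in AP and 0.533 to 1.89 in HSL. It fell with a log2 fold of -3.75 ± 0.35 in AP and of -4.96 ± 0.37 in HSL against basal (adjusted p = 7.69e-08 and 3.27e-09). Cyp24a1, the enzyme that inactivates vitamin D, ran from 7.11 to 37.0 CPM in AP, and was at most 2.42 in basal and 0.462 in HSL. It rose by 4.83 ± 0.89 in AP against basal (adjusted p = 0.000214), so that basal, the population with the highest median level of Vdr, was not the one with the highest Cyp24a1. Spp1, osteopontin, fell in HSL against AP with a log2 fold of -3.20 ± 0.95 (adjusted p = 0.0121), and 21.1% of its span is shared with another gene.

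Of the 5 retinoid receptors that were tested, 1 was called in at least 1 comparison, Rarb, beside the 70.7% of all genes. Rarb, retinoic acid receptor beta, was at 0.530 to 2.81 CPM in basal (median 1.90), 0.442 to 1.18 in AP (median 0.904) and 0.165 to 0.829 in HSL (median 0.246). Rarb fell in HSL against basal with a log2 fold of -2.34 ± 0.45 (adjusted p = 0.000204) and was lower in 6 of 6 sample numbers, with overlap through sample 1 in HSL and sample 4 in basal. HSL against AP gave -1.31 ± 0.44 (adjusted p = 0.0234), and -1.29 with the block (adjusted p = 0.0333). The call without the block was lost when sample 2, 3, 5 or 6 was left out, at adjusted p from 0.0664 to 0.102. Other genes cover 38.4% of the exon length of Rarb, so its level is uncertain.

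Rara and Rarg encode the alpha and gamma receptors. Rara was at 32.6 to 78.4 CPM in basal, 32.6 to 77.7 in AP and 45.6 to 63.8 in HSL, and its log2 folds had intervals from -0.28 to 0.56, from -0.46 to 0.38 and from -0.60 to 0.24 in AP against basal, HSL against basal and HSL against AP. Without sample 1, Rara was lower in HSL than in AP by 0.38 (adjusted p = 0.0305). Rarg was at 24.2 to 51.4, 26.8 to 55.9 and 22.2 to 55.5 CPM, with intervals from -0.52 to 0.54, from -0.69 to 0.36 and from -0.70 to 0.35. The 2 retinoid X receptors that were tested, shared partners of many of the receptors named here, were among the most even of the members. Rxra was at 112 to 194 CPM and Rxrb at 62.2 to 100.2 CPM over all 18 libraries, and no interval of their log2 folds went beyond -0.50 or 0.51. For Rxra in HSL against AP, the block gave 0.23 (adjusted p = 0.0802) and the fit without sample 1 gave 0.25 (adjusted p = 0.142). The block without sample 1, a setting chosen after the data were seen, gave 0.27 (adjusted p = 0.0437). The third, Rxrg, was not tested, with 168 counts in all.

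Several genes that make, bind or degrade retinoic acid changed. Of 14 listed, 11 were tested, 3 rose and 5 fell in AP against basal, 2 rose and 6 fell in HSL against basal, and 1 rose and 4 fell in HSL against AP. Aldh1a3, a retinaldehyde dehydrogenase that makes retinoic acid and an AP marker, rose by 5.35 ± 0.48 in AP against basal (adjusted p = 5.87e-08). Crabp2, which carries retinoic acid to its receptors, rose by 3.17 ± 0.43 in AP against basal and fell with a log2 fold of -3.65 ± 0.44 in HSL against AP (adjusted p = 8.7e-06 and 5.04e-06). Dhrs3, which turns retinaldehyde back into retinol, rose by 1.64 ± 0.20 in AP and by 2.01 ± 0.20 in HSL against basal (adjusted p = 2.23e-06 and 1.22e-07).

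HSL libraries also held less RNA of fibroblast markers. The summed level of 10 such genes was at 750.3 to 1198 CPM in basal, 633 to 1610 in AP and 44.8 to 115 in HSL, and all 10 were called lower in HSL in both comparisons. This moved with the lower Nr3c1, Vdr, Thrb and Rarb in HSL, and its part in those results was not tested. The sum of 5 Schwann cell markers was at 192 to 267 CPM in basal, 292 to 661 in AP and 111 to 125 in HSL. Sox10 and Mbp made up most of it: Sox10 was at 135 to 225, 201 to 516 and 6.23 to 43.0 CPM and Mbp at 29.5 to 46.7, 90.3 to 145 and 66.3 to 107 CPM. The sum does not follow all 5 markers, as 2 were called higher and 2 lower in AP against basal. Against basal, HSL had 1 higher and 4 lower, and against AP 0 higher and 2 lower.

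Among the receptors that sense lipids, Ppara fell and Nr1h3 rose in luminal cells. Ppara, a regulator of fatty acid oxidation on chromosome 15 from 85734983 to 85802819, was at 1.70 to 6.81 CPM in basal (median 2.71), 0.0947 to 1.86 in AP (median 0.427) and 0.0823 to 2.33 in HSL (median 0.749). It was lower than in basal in 6 of 6 sample numbers in both luminal populations, with overlap. The fold was -2.39 ± 0.68 in AP against basal (adjusted p = 0.00766) and -1.77 ± 0.67 in HSL against basal (adjusted p = 0.0295). The latter call was lost when sample 3, 5 or 6 was left out, at adjusted p from 0.052 to 0.0998. For that comparison the block with all samples gave -1.93 (adjusted p = 0.015).

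Pparg, the adipocyte receptor, was at 2.51 to 8.09 CPM over all libraries and Ppard, its widely expressed relative, at 1.91 to 15 CPM, with no call. The log2 folds of Pparg had intervals from -0.27 to 0.87 in AP against basal, from -0.12 to 1.03 in HSL against basal and from -0.42 to 0.72 in HSL against AP. Those of Ppard ran from -1.32 to 0.52, from -1.78 to 0.06 and from -1.38 to 0.46. Without sample 1, Ppard was lower in HSL than in basal by 1.25 (adjusted p = 0.0206). The summed level of 9 adipocyte markers was at 96.2 to 302 CPM in basal, 25.4 to 125 in AP and 10.6 to 59.6 in HSL, with Lipe at 0 in all libraries. Nearly all of this was Fabp4, at 87.8 to 291, 25.4 to 118 and 10.4 to 56.3 CPM, and no other marker passed 7.18 CPM in any library, with 4 markers tested and 1 of these, Fabp4, called lower in each luminal population against basal. Its part in the fall of Ppara was not tested.

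Of 13 genes listed for the response to these receptors 11 were tested, and they went both ways: 4 rose and 5 fell in AP against basal, 5 rose and 5 fell in HSL against basal, and 4 rose and 3 fell in HSL against AP. Angptl4, a secreted inhibitor of lipoprotein lipase, fell with a log2 fold of -3.48 ± 0.33 in AP and of -1.97 ± 0.31 in HSL against basal (adjusted p = 8.61e-08 and 2.31e-05). Plin2, which coats lipid droplets, rose by 2.41 ± 0.28 in AP against basal and fell with a log2 fold of -2.98 ± 0.29 in HSL against AP (adjusted p = 1.28e-06 and 5e-07).

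Nr1h3, liver X receptor alpha, responds to oxidised cholesterol. It was at 4.02 to 8.56 CPM in basal (median 4.97), 9.27 to 11.7 in AP (median 10.8) and 10.3 to 21.3 in HSL (median 14.3). The basal libraries lay below all 12 luminal ones. Nr1h3 rose by 0.95 ± 0.19 in AP and by 1.46 ± 0.20 in HSL against basal (adjusted p = 0.000548 and 4.2e-06). HSL against AP gave 0.51 ± 0.19 (adjusted p = 0.0434), a call that was lost when sample 1, 3, 5 or 6 was left out, at adjusted p from 0.0798 to 0.187. The block gave 0.48 for Nr1h3 (adjusted p = 0.0376), and 0.32 without sample 1 (adjusted p = 0.162). Other genes share 36.6% of its span but 1.35% of its exon length. Nr1h2, the beta receptor, was at 114 to 205 CPM over all libraries. It was called higher in HSL against AP by 0.35 ± 0.13 (adjusted p = 0.0382), in 5 of 6 sample numbers, but this call held under 4 of 16 alternatives and was lost when any 1 of samples 2 to 6 was left out, at adjusted p from 0.0701 to 0.271. With the block Nr1h2 was called lower in AP against basal, by 0.22 (adjusted p = 0.0448), and higher in HSL against AP, by 0.33 (adjusted p = 0.00623).

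Of 10 genes of the response to liver X receptors 9 were tested. In AP against basal 4 rose and 3 fell, in HSL against basal 5 rose and 3 fell, and in HSL against AP 3 rose and 2 fell. Abcg1, which exports cholesterol, was at 2.46 to 6.30 CPM in basal, 4.26 to 13.9 in AP and 33.5 to 56.7 in HSL. It rose by 1.58 ± 0.27 in AP and by 3.65 ± 0.29 in HSL against basal (adjusted p = 0.000107 and 7.37e-09). Lpcat3, which remodels phospholipids, rose in HSL by 1.33 ± 0.12 against basal and by 1.17 ± 0.12 against AP (adjusted p = 3.7e-08 and 9.84e-07). The desaturase genes Scd1 and Scd2 went opposite ways in AP against basal, by 4.18 ± 0.47 and -1.15 ± 0.20 (adjusted p = 9.83e-07 and 0.000117).

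Receptors for bile acids and foreign compounds were almost without counts. Nr1h4, the bile acid receptor FXR, had 43 counts over all 18 libraries, Nr1i2, the pregnane X receptor, had 5, and Nr1i3, the constitutive androstane receptor, had 4. Tomm40l covers 69.7% of the span of Nr1i3 and 89.2% of its exon length, so its low count does not show that it was not expressed. Genes that share their whole span are mostly listed at 0 in these files (1134 of 1264 protein-coding genes). Among those that share a part of it, as Nr1i3 does, 299 of 8550 are at 0. Of 10 genes listed for the response to these receptors, 3 were tested. In AP against basal 1 rose and 1 fell, in HSL against basal 2 rose and 1 fell, and in HSL against AP 0 were called. Slc51b, a subunit of a bile acid transporter, was at 0.583 to 1.34 CPM in basal, had 0 counts in all AP libraries and was at 0 to 0.0176 CPM in HSL. It fell in both luminal populations against basal (adjusted p = 2.48e-07 and 3.83e-07). Abcc3, an exporter of conjugated bile acids, was at 9.68 to 34.7 CPM in basal, 72.9 to 434 in AP and 128 to 531 in HSL. It rose by 3.71 ± 0.42 in AP and by 3.99 ± 0.42 in HSL against basal (adjusted p = 8.56e-07 and 2.51e-07). Abcb11, the bile salt export pump, was at 0 to 0.197 CPM in basal and 0.366 to 1.32 in HSL, and rose there by 3.52 ± 1.08 (adjusted p = 0.00921).

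The receptors of the circadian clock differed both between populations and between sample numbers. Nr1d1 and Nr1d2 encode the repressors REV-ERB alpha and beta, which shut down the clock activator gene Arntl, and the ROR proteins activate it from the same DNA sites. Nr1d1, at chr11:98767932-98775333 on the minus strand, was at 22.0 to 36.5 CPM in basal (median 25.6), 26.8 to 109 in AP (median 80.5) and 38.3 to 140.4 in HSL (median 116). It rose by 1.48 ± 0.30 in AP and by 1.93 ± 0.31 in HSL against basal (adjusted p = 0.000585 and 2.94e-05), in 6 of 6 sample numbers each. The HSL libraries lay above all basal ones. In AP 1 library, that of sample 1, overlapped with basal. Nr1d2, at chr14:18204054-18239127 on the minus strand, was at 31.7 to 61.3, 33.0 to 80.6 and 27 to 68.2 CPM. AP against basal gave 0.48 ± 0.22 (adjusted p = 0.0909), and 0.45 with the block (adjusted p = 0.00171) and 0.53 without sample 1 (adjusted p = 0.00388). The block also raised 4 other receptors to a call in this comparison, Nr3c2, Thra, Rora and Nr1h2.

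The stretches upstream of both repressor genes are shown because their levels differed between sample numbers and because clock proteins and nuclear receptors act at such stretches. Each is the 250 bases before the start of the gene in RefSeq, on GRCm38.p6, read 5′ to 3′ on the strand of the gene. The RefSeq start differs from the gene start given above, which comes from GENCODE: it lies 44 bases further upstream for Nr1d1 and 21 bases inside the gene for Nr1d2. Capitals mark a searched motif: in Nr1d1 the letters AACGTG, which are the E-box variant CACGTT on the other strand, 28 bases before the RefSeq start, and in Nr1d2 the receptor half-site AGGTCA, 77 bases before the RefSeq start.
Nr1d1 (chr11:98775378-98775627, minus strand): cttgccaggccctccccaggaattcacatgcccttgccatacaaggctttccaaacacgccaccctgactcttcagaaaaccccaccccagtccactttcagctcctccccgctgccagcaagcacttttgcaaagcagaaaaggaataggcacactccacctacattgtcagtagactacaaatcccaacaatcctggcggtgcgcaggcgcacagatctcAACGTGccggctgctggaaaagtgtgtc
Nr1d2 (chr14:18239107-18239356, minus strand): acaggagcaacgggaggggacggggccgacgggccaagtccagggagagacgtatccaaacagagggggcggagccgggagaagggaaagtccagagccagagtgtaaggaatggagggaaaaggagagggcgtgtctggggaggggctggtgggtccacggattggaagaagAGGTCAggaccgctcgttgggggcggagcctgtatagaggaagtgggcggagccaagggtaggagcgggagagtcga

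Both strands of the 56 RefSeq upstream stretches that matched 36 of the 39 receptors were searched, with motifs chosen after these sequences were seen. The E-box CACGTG was found upstream of Esr2, Nr0b2, Nr1i3, Rara and Thrb (8.93% of the 56 stretches), and in 6.02% of all 32851 stretches. CACGTT was found upstream of Nr1d1, Rarg and Rorb (5.36%) and in 3.85% of all. The D-box TTATGNAA was found upstream of Esrrg (1.79%) and in 3.07% of all. AGGTCA was found upstream of 10 receptors, in 11 of their 56 stretches (19.6%), and in 14% of all. The longer ROR element, which contains AGGTCA, was found upstream of 0 receptors and in 0.177% of all. A match is a run of letters in this window and shows no binding.

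Rora, the ROR alpha gene, spans chr9:68653786-69388246. It was at 20.03 to 194 CPM in basal (median 96.7), 52.3 to 329 in AP (median 190.2) and 29.5 to 68.8 in HSL (median 49.9). It fell in HSL against AP with a log2 fold of -1.92 ± 0.44 (adjusted p = 0.00179), lower in 6 of 6 sample numbers. AP against basal gave 0.96 ± 0.42 (adjusted p = 0.0752), and 1.01 with the block (adjusted p = 0.00136). HSL against basal gave -0.96 ± 0.42 (adjusted p = 0.0597), and -0.70 with the block (adjusted p = 0.0118). Sample 1 was the lowest in every population, and without it both folds passed the test (0.95, adjusted p = 0.0103, and -1.08, adjusted p = 0.00332). Rorb, the beta gene, was at 0.0627 to 1.09 CPM. Before TMM scaling, 3 counts stand for 0.0329 to 0.113 CPM in these libraries. Rorb fell in HSL against basal with a log2 fold of -1.48 ± 0.51 (adjusted p = 0.0193), a call that was lost without sample 2 (adjusted p = 0.0768). The blocked fit of all samples gave -1.44 (adjusted p = 0.019).

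Of the 27 receptors, 13 differed between sample numbers when the population was held fixed, where 25.4% of all genes did, and 8 of 28 did without sample 1, where 10.3% of all genes did. Those 8 were Esrra, Esrrb, Rarg, Thra, Nr1h2, Rora, Nr1d1 and Nr2f6. Thra gave the lowest adjusted p (F = 20.9, adjusted p = 0.00039, and 0.0019 without sample 1). Nr1d2 gave an adjusted p of 0.00144, and of 0.0545 without sample 1. Nr1d1 gave 0.0189, and 0.0076 without sample 1. In sample 1 the levels of Nr3c2, Rora and Nr1d2 were the lowest of the 6 in all 3 populations. Rarg was at 39.5, 51.4, 49.8, 30.6, 27.7 and 24.2 CPM in basal in samples 1 to 6, at 37.5, 48.2, 55.9, 26.8, 28.5 and 28 in AP, and at 34.3, 55.5, 32.6, 27.3, 27.2 and 22.2 in HSL. Its lowest level was in sample 6 in basal and HSL and in sample 4 in AP.

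Of 15 genes of the circadian clock, 13 were tested, and Per3 and Ciart are listed at 0 in all libraries. Between sample numbers 7 of the 13 were called (Arntl, Per1, Per2, Cry2, Dbp, Nfil3 and Bhlhe41), and 3 without sample 1 (Per1, Bhlhe41 and Tef, the last of them not called with it). Arntl, the partner of CLOCK, was lowest in sample 1 in all 3 populations, at 32.3, 26.3 and 23.9 CPM in basal, AP and HSL, and so were Per2, Nfil3, Bhlhe40 and Bhlhe41. Between populations, 7 rose and 3 fell in AP against basal, 6 rose and 3 fell in HSL against basal, and 5 rose and 4 fell in HSL against AP. Npas2, a stand-in for CLOCK, rose by 3.34 ± 0.38 in AP against basal, and Clock fell there with a log2 fold of -0.84 ± 0.18 (adjusted p = 9.83e-07 and 0.000706). Nfil3, a repressor that acts at D-boxes, fell with a log2 fold of -2.23 ± 0.20 in AP against basal, and Hlf, an activator at D-boxes, rose by 2.67 ± 0.36 (adjusted p = 6.67e-08 and 7.6e-06). Between sample numbers, 7 of 8 tested leukocyte markers and 4 of 4 tested erythroid markers were also called, where 25.4% of all genes were. Of fibroblast and endothelial markers, 0 of 10 and 1 of 10 were called. The hour of collection is not in the labels. Neither its part nor that of other cells in the differences between sample numbers was tested.

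**Figure D3:**
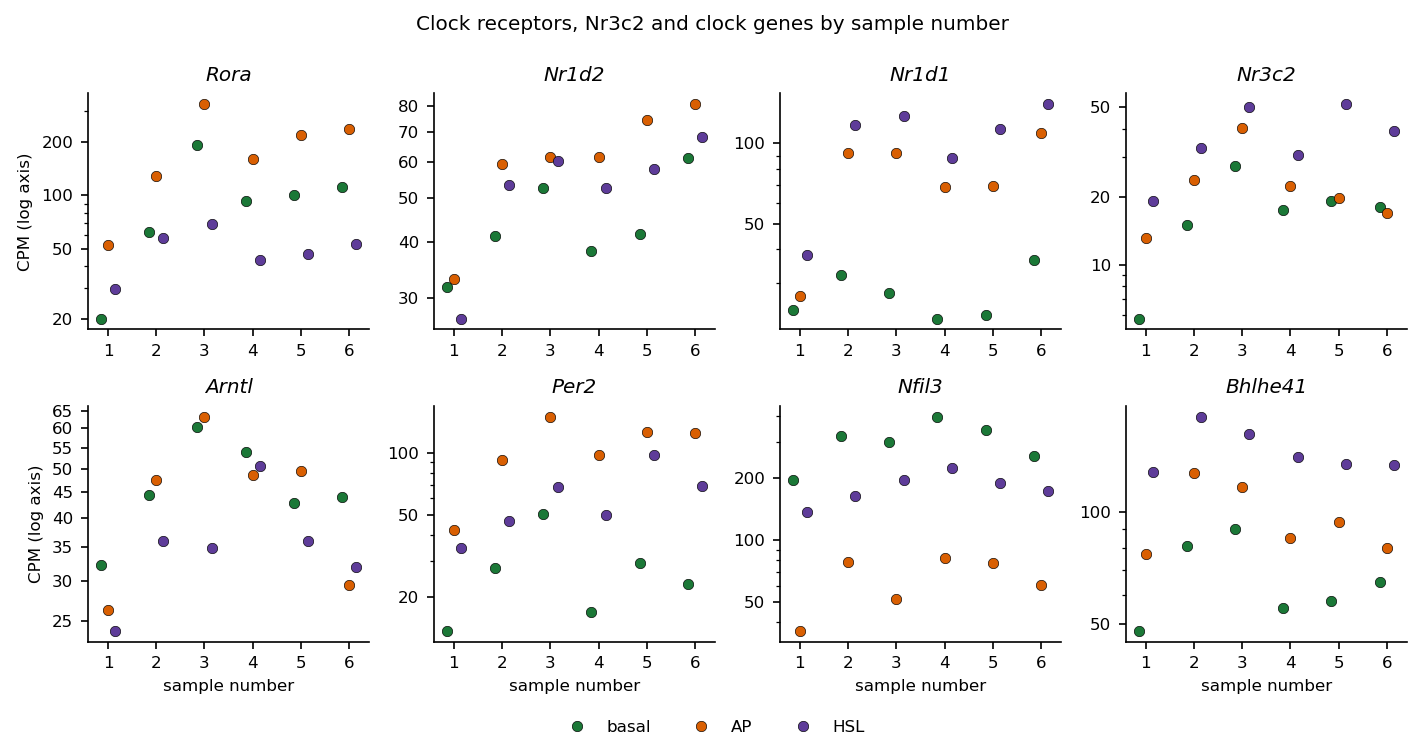
CPM on a log axis of Rora, Nr1d2, Nr1d1, Nr3c2 and 4 clock genes against the sample number, with a point for each population. Sample 1 is the lowest of its population for Rora, Nr1d2, Nr3c2, Arntl, Per2, Nfil3 and Bhlhe41, as with Rora at 20.03, 52.3 and 29.5 CPM, while Nr1d1 in basal is not.

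Of the receptors without a well-established hormone, 4 of the 5 that were tested beside the groups above were called in at least 1 comparison, beside 70.7% of all genes. Nr2c1, the testicular receptor TR2, was at 45.0 to 55.9 CPM in basal, 29.3 to 37.1 in AP and 27.4 to 33.9 in HSL. Its basal libraries lay above the other 12. It fell with a log2 fold of -0.55 ± 0.09 in AP and of -0.72 ± 0.09 in HSL against basal (adjusted p = 9.03e-05 and 3.11e-06). Its relative Nr2c2 was at 17.3 to 56.4 CPM with no call.

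Nr2f2 encodes COUP-TFII, a receptor known from veins and lymph vessels. It was at 8.96 to 19.8 CPM in basal, 4.55 to 13.6 in AP and 11.7 to 21 in HSL. It fell in AP against basal with a log2 fold of -0.75 ± 0.26 (adjusted p = 0.0255) and rose in HSL against AP by 0.91 ± 0.26 (adjusted p = 0.0098), in 6 of 6 sample numbers each. The former call was lost when sample 2, 3, 5 or 6 was left out, at adjusted p from 0.0546 to 0.0837, and the latter without sample 5 (adjusted p = 0.0544). With all samples and the block the folds were -0.78 and 0.99 (adjusted p = 0.0011 and 0.000228). The summed level of 10 endothelial markers was at 102 to 321 CPM in basal, 48.0 to 122 in AP and 87.3 to 215 in HSL, and all 10 were called lower in AP against basal. Against basal, HSL had 9 called lower and 1, Vwf, higher, and in HSL against AP Vwf rose by 1.82 ± 0.33 (adjusted p = 0.000295) and Tek fell with a log2 fold of -1.60 ± 0.44 (adjusted p = 0.0076). Vwf alone was at 62.3 to 173 CPM in HSL and at 20.5 to 50.3 in AP, and each of the other 9 had a log2 fold below 0 in HSL against AP. The sum of 5 lymphatic markers was at 58.5 to 177 CPM in basal, 2.5 to 7.73 in AP and 3.79 to 10.3 in HSL. Reln made up most of it in basal, at 40.2 to 165 CPM, and Prox1 in HSL, at 3.42 to 7.96 CPM. Prox1 rose in HSL against AP by 1.47 ± 0.31 (adjusted p = 0.000964) and Reln fell with a log2 fold of -2.20 ± 0.72 (adjusted p = 0.0201). Their part in the level of Nr2f2 was not tested.

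Nr2f6, a relative of COUP-TFII, was at 44.1 to 96.3 CPM in basal, 49.6 to 103 in AP and 71.0 to 116 in HSL. It rose in HSL against basal by 0.61 ± 0.21 (adjusted p = 0.0175), and by 0.65 with the block (adjusted p = 0.000199). The call without the block was lost when sample 2, 3 or 4 was left out, at adjusted p from 0.0558 to 0.0746. HSL against AP gave 0.51 ± 0.21 (adjusted p = 0.0585), and 0.55 with the block (adjusted p = 0.0012). The gene Ocel1 shares 66.8% of the span of Nr2f6, so its level is uncertain. Nr6a1, the germ cell nuclear factor, was at 11.7 to 37.0 CPM in basal, 10.5 to 31.3 in AP and 8.26 to 15.2 in HSL. It fell in HSL against basal with a log2 fold of -0.93 ± 0.32 (adjusted p = 0.0182), a call that was lost without sample 5 or sample 6 (adjusted p = 0.0593 and 0.0762). The blocked fit of all samples gave -0.85 (adjusted p = 0.00641).

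The 12 receptors that were not tested had few counts, at most 192 over all 18 libraries and at most 1.00 CPM in any library. Nr0b1 and Nr0b2, which lack a DNA-binding domain and inhibit other receptors, had 0 counts in all 18 libraries. The limit that a count of 0 allows is 3 counts in a library, which stand for 0.0329 to 0.113 CPM before TMM scaling. Nr2f1 had 14 counts in all, Nr2e3 had 44, Hnf4g had 56 and Hnf4a had 66. Esr2, oestrogen receptor beta, had 192 counts and was at 0.177 to 1.00 CPM in basal, 0.0678 to 0.179 in AP and 0.0563 to 0.329 in HSL. Nr5a2, the liver receptor homologue, had 106 counts, 83 of them in basal. With no filter on low counts, Nr5a2 was called lower in AP and in HSL against basal (log2 -2.62 and -3.03, adjusted p = 0.00407 and 0.00112), and so was Esr2 (-1.85 and -1.52, adjusted p = 0.0167 and 0.0385). In the same fit Hnf4g was called higher in HSL against basal (2.89, adjusted p = 0.0292) and Nr2f1 lower in HSL against AP (adjusted p = 0.0389). All 6 HSL libraries had 0 counts of Nr2f1, and only 3 of the 6 AP libraries had any. These held 13 counts, 7 of them in sample 2 and 5 in sample 3.

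Levels of different receptors were compared per kilobase of exon. In basal, Vdr had the highest median, at 64.8 CPM per kilobase, followed by Nr1h2 at 43.2, Rxra at 29.9, Rxrb at 19.7, Nr2f6 at 18.8 and Nr3c1 at 13.9. The ranges of Vdr (28.9 to 79.0) and Nr1h2 (35.6 to 52.6) overlapped, that of Rxra (23.3 to 35.5) lay just below that of Nr1h2, and each further pair of neighbours among these 6 overlapped. In AP the order was Vdr at 39.0, Nr1h2 at 36.6, Nr1d1 at 26.2, Rxra at 23.9 and Nr2f6 at 20.2, again with overlap between neighbours. In HSL it was Nr1h2 at 47.3, Nr1d1 at 37.6, Nr2f6 at 30.9, Rxra at 29.8 and Rxrb at 21.5, with Vdr at 7.61 and Nr3c1 at 3.35. Rorb was the lowest of the tested receptors in all 3 populations, at 0.0577, 0.0354 and 0.0232. With the length of the longest transcript in place of the exons, Nr1h2 came before Vdr and Rxrb before Nr2f6 and Rxra in AP, and Rara before Nr3c1 in basal.

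**Figure D4:**
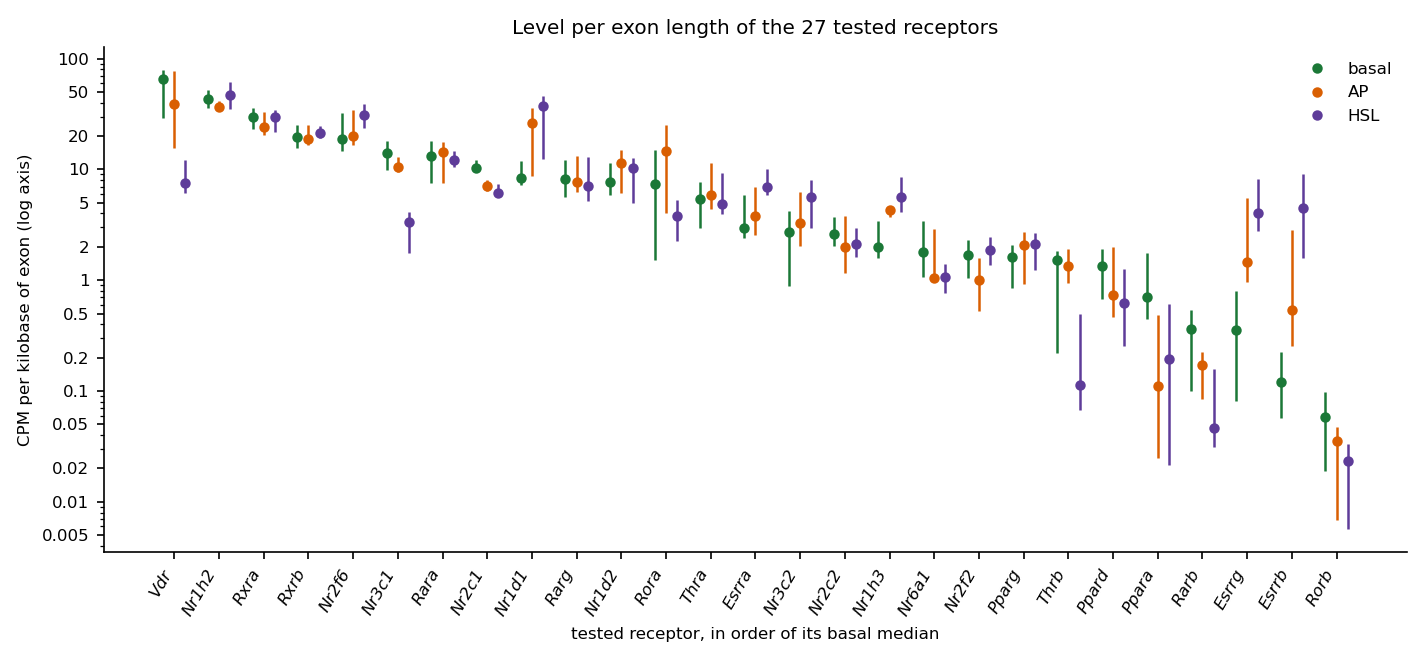
CPM per kilobase of exon on a log axis for the 27 tested receptors, in the order of their basal medians, with a point at the median and a line from the lowest to the highest of 6 libraries in each population. Vdr leads in basal at 64.8 and is at 7.61 in HSL, and Esrrb goes from 0.120 in basal to 4.48 in HSL.

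Coregulators are the cofactors that many receptors share. Of 20, 2 rose and 3 fell in AP against basal, 1 rose and 6 fell in HSL against basal, and 1 rose and 5 fell in HSL against AP. Ncoa1, the steroid receptor coactivator SRC1, was at 81.5 to 157 CPM in basal, 73.5 to 135 in AP and 49.7 to 63.8 in HSL, with no overlap between HSL and the others. Ncoa1 fell in HSL with a log2 fold of -1.14 ± 0.17 against basal and of -1.04 ± 0.17 against AP (adjusted p = 1.91e-05 and 0.00013). Ncoa7, a coactivator known from oestrogen receptor binding, fell in HSL with a log2 fold of -2.58 ± 0.46 and -2.6 ± 0.46 (adjusted p = 9.47e-05 and 0.000203). Ncoa5 fell in HSL with a log2 fold of -0.54 ± 0.14 against basal and of -0.81 ± 0.14 against AP (adjusted p = 0.00241 and 0.00014). The summed level of the 20 had a median of 1809 CPM in the basal libraries, and of 1813 and 1774 CPM in those of AP and HSL.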

How the data were processed

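RNA of 18 sorted libraries was amplified with Smart-Seq v4 and tagged with Nextera XT, which keeps no strand, per the labels' protocols. The authors deposited whole-number gene counts, aligned to GRCm38 per the submitters' processing notes; neither aligner nor counter is named (not given in the sources used here). RPKM values, also deposited by the authors, entered no result, since 85.6% of their gene widths equal the genomic span with introns. Symbols, coordinates and exon lengths come from GENCODE M21, which matched 52489 identifiers; the other 147 held 0.00303 to 0.00677% of counts and were left out. Any 2 libraries differed in at least 19865 genes, so none was counted as a copy of another.

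Counts were scaled with TMM factors and fitted in edgeR 4.0.16 (R 4.3.3) with 1 mean per population and robust quasi-likelihood dispersions over all 18 libraries, after filterByExpr with a minimum count of 10, which kept 16471 genes. Adjusted p-values are Benjamini-Hochberg over these genes, and intervals are at 95%. Differences between sample numbers were tested with 5 added terms. DESeq2 1.42.0 and limma 3.58.1 served as alternatives, and the model was tested on simulated counts. Python 3.11.15 with pandas 2.3.3 was used for joins. Counting limits cover counting error only.

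Libraries of the same sample number, which the titles give, deviated together from their population means (r from 0.127 to 0.63 over 18 pairs, across genes). The fit with the number as a block is therefore given where it changes a call, or where a call was lost without 1 sample. Fits that left out 1 sample had no block unless stated. Receptors called with at least a 2-fold change are given by level and fold, the others by level; of each pathway list up to 4 called genes with the smallest adjusted p are named, and any clock gene. The receptors and the 22 gene lists were chosen with earlier results of these data known. Some genes are in more than 1 list (Klf9, Per1, Fabp4 and Aldh1a3). Some genes of the lists are not reported here by name.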

Additional observations from a re-analysis of the deposited data

Results flagged for a closer look

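In 7 of 81 groups of 6 libraries, the highest library of a receptor was separated from the next by more than 0.625 of the whole range, where chance marks about 1 group in 20. Sample 1 gave 3 of these: Thrb in HSL at 3.70 CPM (next 1.29), Rarb in HSL at 0.829 CPM (next 0.396) and Nr2f6 in AP at 103 CPM (next 67.7). Sample 2 gave Rarg in HSL at 55.5 CPM (next 34.3) and Nr1h3 in basal at 8.56 CPM (next 5.60). Sample 3 gave Esrrg in AP at 34.5 CPM (next 15.1) and Nr6a1 in AP at 31.3 CPM (next 16.1).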

How the results depend on the processing

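No receptor's fold reversed under any alternative among those called. Of the calls, 2 of 7 in AP against basal (Esrrb and Esrrg), 9 of 15 in HSL against basal and 1 of 10 in HSL against AP (Nr3c1) held under all 16 settings tried. With samples 1 to 3 only, all genes called went from 7356 to 3718 in AP against basal. They went from 9621 to 5674 in HSL against basal and from 6571 to 1491 in HSL against AP. Receptors called went to 2 higher and 0 lower in AP against basal and to 0 higher and 1 lower in HSL against AP. Samples 4 to 6 only, with as many libraries, gave 7693, 9835 and 7090 genes called in the same 3 comparisons. In that setting 7 receptors were higher and 5 lower in AP against basal, and 6 higher and 7 lower in HSL against AP. The replicate block gave 8 higher in AP against basal and 8 higher in HSL against AP, with 9072 and 8374 of all genes called, and without sample 1, an alternative chosen after the data were seen, 8 higher and 7 lower in AP against basal and 9 higher and 9 lower in HSL against AP, with 9583 and 8919 of all genes called. The block lost no call with all samples, and without sample 1 it lost that of Nr1h3 in HSL against AP (log2 0.32, adjusted p = 0.162). In HSL against AP, 3 receptors were higher with DESeq2 size factors, 1 with total counts, 2 without a filter and 3 with that pair of populations alone. All genes called there were 6541 (39.7%), 6277 (38.1%), 6129 (21.9% of the 28035 tested) and 6385 (41.8%). Without a filter 37 receptors were tested, and 5 were lower in AP against basal, where 7715 genes (27.5%) were called. Leaving out 1 sample gave 4 to 6 higher and 2 to 4 lower in AP against basal, 6 to 7 and 6 to 11 in HSL against basal, and 1 to 7 and 4 to 8 in HSL against AP; all genes called ran from 6205 to 8352, from 8546 to 10651 and from 5207 to 7898. Between sample numbers, leaving out 1 sample gave 1696 to 3991 genes and 8 to 11 receptors, and the likelihood ratio test of DESeq2 gave 6750 genes. Where a count changed, the cause was not tested. Total counts moved the median log2 fold of all genes to 0.14 in AP against basal and -0.10 in HSL against basal. Low counts limit what can be said of the 12 receptors that were not tested.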
